A study of Mus musculus with 2 samples.

Results

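The genes described here encode the mitochondrial respiratory chain and ATP synthase. They were taken by symbol: every row whose symbol starts with Ndufa, Ndufb, Ndufc, Ndufs, Ndufv, Uqcr, Atp5, mt-Nd, mt-Co, mt-Cyt or mt-Atp, and Sdha to Sdhd. This gave 90 of the 31253 rows in the count tables. Of these, 77 are nuclear genes: 37 subunits of complex I, 8 assembly factors of complex I, Ndufa4 and Ndufa4l2, 4 subunits of complex II, 8 of complex III and 18 of ATP synthase. The other 13 are the genes of the mitochondrial genome, written mt-. The symbol rule leaves out the nuclear subunits of complex IV and cytochrome c, which were followed as a separate list.

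The cells came from the brains of C57BL/6 mice carrying an intracranial glioma grown from injected GL261 cells, a mouse glioma line, and were sorted for CD45. The control mice received PBS by gavage (a label calls them untreated), and the other mice received ibudilast at 20 mg/kg, 5 times a week for 2 weeks; ibudilast is a phosphodiesterase inhibitor. Each group is 1 single-cell library made with the 10x Genomics 3' kit. The sources used here do not say how many mice went into each. With 1 library per group there is no replicate and no test between groups, so values are given with 95% intervals that cover counting error only.

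Each molecule was counted by its unique molecular identifier (UMI). The PBS library held 8968 barcodes with 119113794 UMIs and the ibudilast library 8483 with 82196922. The libraries shared 19 barcodes. After filtering, 7666 and 6654 cells remained, with medians of 11659.5 and 7857 UMIs. Ptprc, the gene of CD45, had a UMI in 92.6% and 88.8% of them. Limits on marker genes placed 4533 PBS and 3570 ibudilast cells in 1 of 15 gates, named here for their markers, and 3120 and 3055 cells in none. The labels call the cells lymphocytes, but the gate with the most cells was that of macrophages, with 2484 and 901. No gate had a marker of its own list at 0 in either library. The gates required UMIs of genes on these lists, so this was in part fixed by the gating.

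As background, complex I (NADH dehydrogenase) and complex II (succinate dehydrogenase) pass electrons to ubiquinone, complex III passes them to cytochrome c, and complex IV (cytochrome c oxidase) passes them to oxygen. Complexes I, III and IV pump protons, and ATP synthase makes ATP as the protons flow back. The mt- genes encode core subunits of complexes I, III and IV and of ATP synthase, and the rest of the subunits are encoded in the nucleus. In T cells, activation and division are known to go with a build-up of this machinery, while macrophages and dendritic cells activated by inflammatory signals can lean on glycolysis.

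Nearly all nuclear members were measured: 76 of 77 had a UMI in each library, and at least 1000 UMIs were found for 74 (PBS) and 72 (ibudilast). Ndufa4l2, a paralogue of Ndufa4, had 2 and 19 UMIs over all kept cells. Atp5o has rows under 2 gene identifiers, of which ENSMUSG00000116933 had no UMI in the largest gates and ENSMUSG00000022956 carries the values given here. Ndufb1-ps, the mouse row for a small complex I subunit, is annotated by GENCODE as a noncoding RNA at a shared promoter, so its UMIs are given without a protein role.

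The summed level of the nuclear members, with the gate's UMIs scaled to a total of 1000000 (CPM), was highest in T cells, natural killer (NK) cells and several kinds of dendritic cell, among them conventional type 1 dendritic cells (cDC1). Regulatory T cells, with 53 PBS and 61 ibudilast cells, had 18790 CPM (PBS, 18460 to 19110) and 17440 CPM (ibudilast, 17140 to 17740). Paired values keep this order of the libraries. CD8 T cells had 17380 and 17920, cDC1 had 17240 and 16770, and NK cells had 16810 and 15570. Macrophages lay below these at 14940 (14900 to 14980) and 15210 (15130 to 15290), next to cells with both the monocyte marker Ly6c2 and the macrophage C1q genes, called intermediate here, at 14770 and 15030. Monocytes had 13820 and 13610, and migratory dendritic cells, marked by Ccr7 and Fscn1, had 12990 and 12190. Neutrophils were lowest, with 8343 and 6534 CPM over 24 and 21 cells. In 7 gates the sum was above that of macrophages in both libraries. Many neighbours in this order could not be told apart: the intervals of NK cells and plasmacytoid dendritic cells overlapped in the PBS library (16580 to 17040 and 16460 to 17160), as did those of NK cells and type 2 dendritic cells in the ibudilast library (15380 to 15770 and 15140 to 15600). The order was nearly the same in both libraries, with a Spearman correlation of 0.960 across the 15 gates, which share the library and its depth within each set.

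The mt- members followed another order. Macrophages had 3.15% (PBS) and 3.26% (ibudilast) of their UMIs on these genes. In cDC1, which were high in nuclear members, the share was 2.18% and 2.11%, and in migratory dendritic cells 1.44% and 1.52%. B cells had 3.94% and 3.78% over 33 and 41 cells, with nuclear sums of only 12040 and 11570 CPM. Their B cell markers were at 6050 and 3917 CPM, but plasma cell markers were at 63.9 and 9659 and those of plasmacytoid dendritic cells at 2365 and 1569, and the part of these in the B cell values was not tested. The ratio of mt- to nuclear member UMIs therefore ran up from 1.1 and 1.3 in migratory dendritic cells and 1.3 and 1.3 in cDC1, through 2.11 and 2.15 in macrophages. Highest were B cells, at 3.27 and 3.26, and basophils or mast cells, at 3.38 and 2.94. Across the 15 gates the nuclear CPM and the mt- share had Spearman correlations of 0.0965 (PBS) and 0.146 (ibudilast), and the nuclear CPM and the share of ribosomal protein UMIs one of 0.390 and 0.486. Cells with over 10% mt- UMIs had been left out, a limit that acts on these genes themselves. Without the limit the macrophage shares were 3.36% and 3.98%, those of cDC1 2.17% and 2.16%, those of migratory dendritic cells 1.48% and 1.51% and those of B cells 4.13% and 3.78%. The gates with an mt- share above macrophages in both libraries were 4 with the limit (B cells, microglia, plasmacytoid dendritic cells, and basophils or mast cells) and 2 without it. The basophil or mast gate of the ibudilast library held 18630 CPM of haemoglobin UMIs against 19.9 in the PBS library, and the part of this in its values was not tested.

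**Figure D1:**
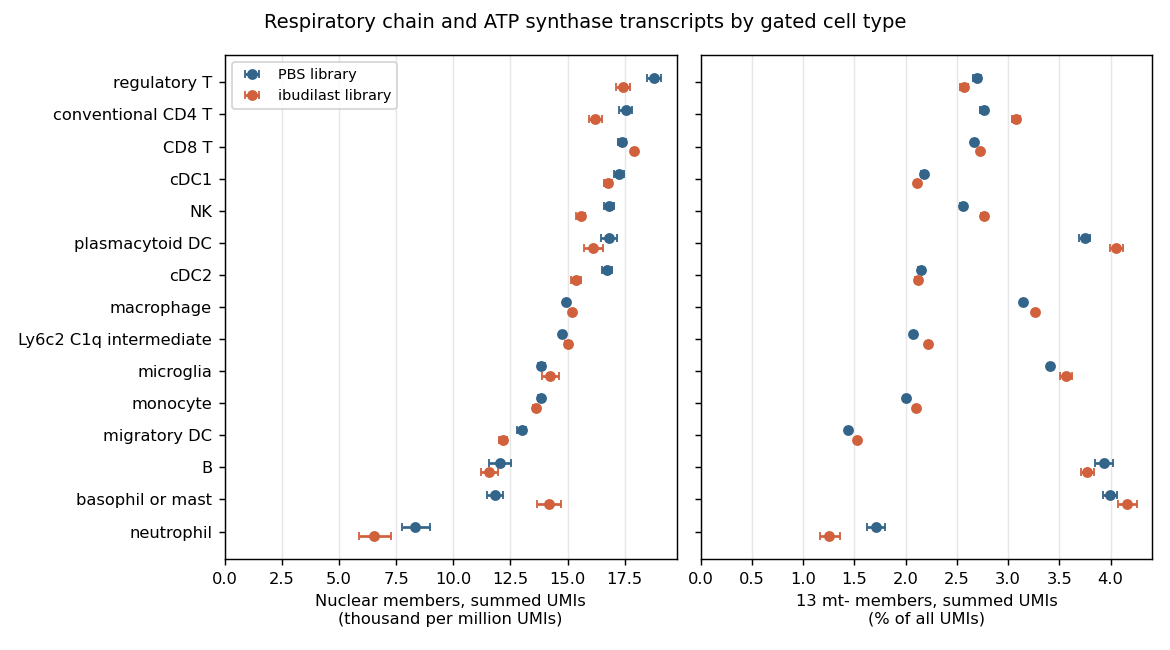
Summed UMIs of the nuclear members on the CPM scale (left; tick labels give CPM divided by 1000) and of the 13 mt- members as a percentage of all UMIs (right), for 15 marker gates in both libraries. At the top of the nuclear scale lie regulatory T cells in the PBS library (18790 CPM) and CD8 T cells in the ibudilast library (17920 CPM, against 17440 in regulatory T cells). Migratory dendritic cells lie near the bottom of the mt- scale (1.44% and 1.52%).

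Single members were then compared with macrophages in 6 gates. A member counted as lower when its CPM ratio was under 0.8 in both libraries, and as higher when it was above the inverse of 0.8 in both (the fold limit), with at least 200 UMIs over the cells compared. In each of these gates 75 nuclear members passed that floor, often through their UMIs in macrophages. Members with under 50 UMIs in a library numbered 10 in migratory dendritic cells, 8 in NK cells and 8 in cDC1. They numbered 4 in monocytes, 4 in intermediate cells and 3 in CD8 T cells, and UMIs are printed below for only some of them. CD8 T cells had 17 members higher and 2 lower, where 30.2% and 27.7% of all nuclear genes were higher and lower. NK cells had 9 higher and 6 lower (26.8% and 26.6% of all nuclear genes), and cDC1 had 10 higher and 1 lower (16.5% and 28.5%). Monocytes had 6 higher and 20 lower (16.6% and 33.8%), migratory dendritic cells 2 higher and 39 lower (20.1% and 41.2%), and the intermediate cells 1 higher and 0 lower (7.8% and 13%). The members' shares past the fold were thus below those of all nuclear genes in every direction but 1: in migratory dendritic cells 52.0% of the members were lower. UMIs of the macrophage marker list, at 41150 and 42030 CPM in macrophages, were at 2118 and 1868 in NK cells and 2047 and 1902 in CD8 T cells. All but 3 of the calls, all in migratory dendritic cells, also had 95% intervals on the same side of 1 in both libraries.

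The median log2 ratio of the nuclear members to macrophages was 0.21 in CD8 T cells, against 0.07 over all nuclear genes that passed the floor, and 0.14 in cDC1, against -0.12. In NK cells it was 0.07 (all genes 0.04), in monocytes -0.19 (all genes -0.18), in intermediate cells -0.05 (all genes -0.05) and in migratory dendritic cells -0.39 (all genes -0.34). The medians of all genes include genes with no UMI in a gate. Without these they were 0.05 in NK cells, -0.11 in cDC1 and -0.30 in migratory dendritic cells. After each ratio was divided by the median ratio of all nuclear genes, 13 members were lower in monocytes, and 13 were higher and 18 lower in migratory dendritic cells. The monocyte count was also smaller in cells of 4000 to 12000 UMIs (11 lower) and under a first version of the gates (9 lower). The shares of all nuclear genes above hold for the main setting only and are not given for these settings. Monocytes had more UMIs of dissociation stress genes than macrophages (22620 and 22200 CPM against 9898 and 9230) and of haemoglobin (2480 and 2107 CPM against 6.28 and 73.5), and the part of these in the ratios was not tested.

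**Figure D2:**
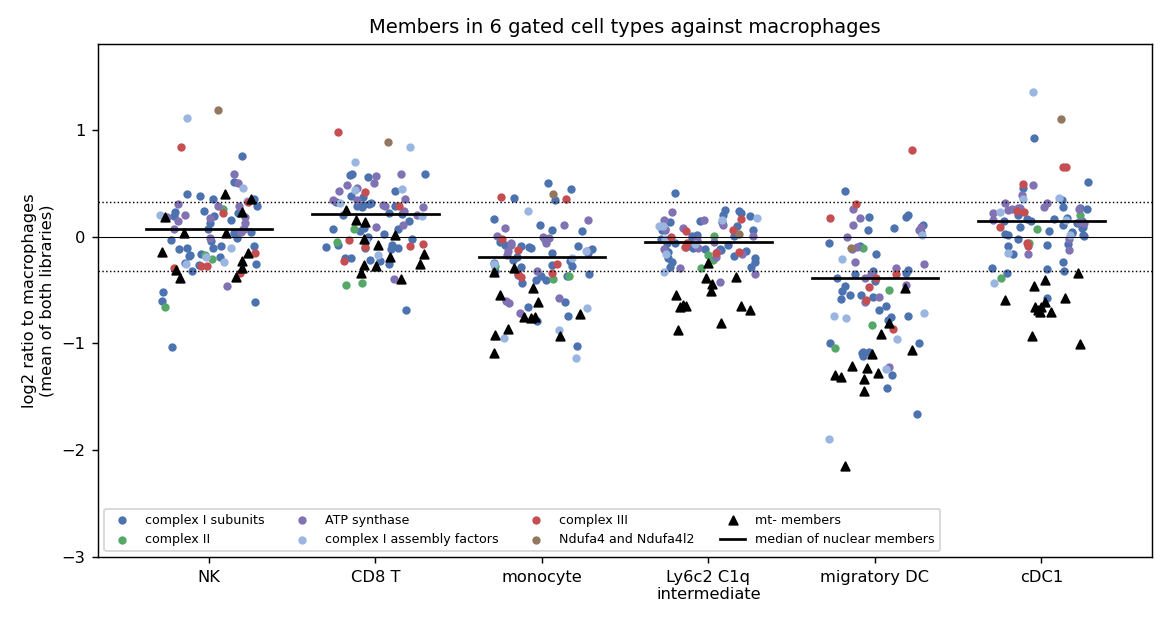
Each point is 1 member: its log2 CPM ratio to macrophages, averaged over both libraries, in 6 gates. Dotted lines mark the fold limit in both directions, triangles are the mt- members and black bars the medians of the nuclear members. The triangles lie below most circles in monocytes, intermediate cells, migratory dendritic cells and cDC1, and the nuclear median falls from 0.21 in CD8 T cells to -0.39 in migratory dendritic cells.

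Among the 37 complex I subunits, CD8 T cells had 6 higher and 1 lower than macrophages, NK cells 4 and 4, cDC1 3 and 1, monocytes 3 and 9, migratory dendritic cells 1 and 21, and intermediate cells 1 and 0. The shares of all nuclear genes were 30.2% and 27.7% in CD8 T cells, 26.8% and 26.6% in NK cells and 16.5% and 28.5% in cDC1. They were 16.6% and 33.8% in monocytes, 20.1% and 41.2% in migratory dendritic cells and 7.8% and 13% in intermediate cells. Ndufc2, a subunit of the membrane arm (chr7:97400003-97407802 in mm10), was the lowest in both lymphocyte gates. It had 308 and 336 CPM in macrophages, 197 and 202 in CD8 T cells and 169 and 146 in NK cells. Its ratio to macrophages was 0.638 (0.580 to 0.700) and 0.603 (0.559 to 0.650) in CD8 T cells. In cDC1 the ratio was 0.666 and 0.673, and Ndufc2 was the 1 nuclear member lower there. Ndufb11, another membrane arm subunit, showed the opposite pattern, with 164 and 174 CPM in macrophages, 319 and 320 in cDC1, 281 and 290 in NK cells and 257 and 252 in CD8 T cells.

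Ndufa5, a subunit of the matrix arm, had 126 and 140 CPM in macrophages, 66.1 and 64.5 in monocytes and 49.3 and 35.7 in migratory dendritic cells. The last pair rested on 65 and 51 UMIs and gave ratios of 0.392 (0.302 to 0.501) and 0.256 (0.189 to 0.338). Ndufa6, also of the matrix arm, lay the other way in monocytes, at 231 and 238 CPM against 168 and 178. It was also the only nuclear member higher in the intermediate cells, at 215 and 245 CPM. Ndufv2, an iron-sulphur subunit of the NADH-oxidising module, was 1 of the 2 members higher in migratory dendritic cells, with 173 and 173 CPM against 125 and 133. Ndufs3 and Ndufs7, core subunits of the arm that carries electrons to ubiquinone, had 43.2 and 39.9 and 72.8 and 75 CPM in migratory dendritic cells against 108 and 114 and 156 and 166 in macrophages. Both were among the 21 subunits lower there. Ndufs1 and Ndufv1, core subunits that take up electrons from NADH, were at 24.4 and 23.0 and at 52.7 and 57.2 CPM in macrophages. Ndufs4, an accessory subunit of the same arm, was at 119 and 121 CPM in macrophages and 153 and 156 in monocytes.

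The 8 assembly factors build complex I but are not part of it, and 4 of them were among the 8 members with the widest spread over the 6 largest gates. Ndufaf4 had 48.0 and 18.1 CPM in NK cells and 27.7 and 23.8 in macrophages, so the order of these gates turned between the libraries. It had 11.4 and 4.2 CPM in migratory dendritic cells, from 15 and 6 UMIs. Its highest gate exceeded its lowest by 4.22-fold (PBS) and 7.71-fold (ibudilast). Ndufaf7 had 26.5 and 28.7 CPM in NK cells over 32 and 46 UMIs, against 12.9 and 12.6 in macrophages. Ndufaf6 had 26.9 and 30.2 CPM in cDC1, against 11.7 and 10.6 in macrophages. Monocytes had 4 of the 8 factors lower than macrophages (33.8% of all nuclear genes), among them Ndufaf2 at 12.9 and 9.42 CPM against 22.8 and 19.8.

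Complex II has no mt- subunit and also works in the citric acid cycle. Sdha, the flavoprotein that oxidises succinate, had 72.5 and 68.9 CPM in macrophages and 74.4 and 74.3 in CD8 T cells. The iron-sulphur subunit Sdhb had 143 and 160 CPM in macrophages and 99.3 and 73.6 in migratory dendritic cells. The membrane anchors differed between gates: Sdhd had 93.6 and 94.6 CPM in macrophages and 68.0 and 69.3 in CD8 T cells, a ratio of 0.726 (0.616 to 0.851) and 0.733 (0.642 to 0.836). The other anchor, Sdhc, had 77.8 and 72.3 CPM in macrophages and 38.7 and 34.3 in migratory dendritic cells. No complex II gene was higher than in macrophages in any of the 6 gates. In migratory dendritic cells 3 of the 4 were lower, where 41.2% of all nuclear genes were lower.

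In complex III the clearest difference was in Uqcrh, the acidic hinge protein next to cytochrome c1 (chr4:116066965-116075071 in mm10). It had 411 and 425 CPM in macrophages, 813 and 833 in CD8 T cells, 679 and 815 in NK cells, 712 and 756 in migratory dendritic cells and 545 and 534 in monocytes. The ratio to macrophages was 1.98 (1.88 to 2.07) and 1.96 (1.88 to 2.05) in CD8 T cells and 1.73 (1.62 to 1.85) and 1.78 (1.66 to 1.91) in migratory dendritic cells, where 39 members were lower. The Rieske iron-sulphur protein Uqcrfs1 had 99.6 and 99.2 CPM in macrophages, 159 and 153 in cDC1 and 128 and 126 in monocytes. Uqcrb was also higher in cDC1, at 495 and 466 CPM against 348 and 337. In all, 3 of the 8 complex III members were higher and none lower in cDC1 (16.5% and 28.5% of all nuclear genes). The core protein Uqcrc1 had 107 and 106 CPM in macrophages and 121 and 106 in cDC1, and Uqcrq, a small subunit, had 372 and 385 in macrophages and 447 and 437 in cDC1.

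Ndufa4, named as a complex I subunit but now placed in complex IV, also differed between cell types (chr6:11900292-11907497 in mm10). Its levels were 463 and 418 CPM in regulatory T cells, 420 and 365 in cDC1, 391 and 444 in NK cells, 330 and 346 in CD8 T cells, 257 and 228 in monocytes, 186 and 181 in macrophages, 181 and 191 in intermediate cells and 184 and 158 in migratory dendritic cells. The last 3 gates lay together, and neutrophils were lower still, at 115 and 77.3 CPM over 10 and 4 UMIs. The ratio to macrophages was 2.11 (1.92 to 2.32) and 2.46 (2.25 to 2.68) in NK cells and 2.26 (2.07 to 2.46) and 2.02 (1.85 to 2.21) in cDC1. AA467197, the mouse gene of a paralogue known to take the place of Ndufa4 in complex IV, was not a member. It was lower than in macrophages in cDC1 and NK cells, where Ndufa4 was higher, but both genes were higher in monocytes. AA467197 had 576 and 804 CPM in migratory dendritic cells, 589 and 541 in monocytes, 231 and 226 in macrophages, 118 and 67.6 in cDC1 and 108 and 76.2 in NK cells. Among these gates its UMIs per Ndufa4 UMI ran from 0.275 and 0.172 in NK cells and 0.282 and 0.185 in cDC1 to 1.242 and 1.247 in macrophages, 2.29 and 2.38 in monocytes and 3.13 and 5.10 in migratory dendritic cells. Over all gates the lowest were basophils or mast cells, at 0.106 and 0.058. The highest were neutrophils, at 6.8 and 6.0 over 10 and 4 Ndufa4 UMIs.

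Of 17 ATP synthase members measured, 7 were higher in CD8 T cells and none lower (30.2% and 27.7% of all nuclear genes). One was Atp5d of the central stalk (469 and 458 CPM against 301 and 318 in macrophages). In monocytes 4 of the 17 were lower and none higher (33.8% and 16.6% of all nuclear genes). The catalytic subunit Atp5b had 318 and 283 CPM in monocytes, 462 and 448 in macrophages, 544 and 562 in CD8 T cells and 614 and 578 in cDC1. Its partner in the catalytic head, Atp5a1, had 236 and 208 CPM in monocytes and 285 and 269 in macrophages. Atp5b was thus lower in monocytes by a ratio of 0.688 (0.649 to 0.729) and 0.632 (0.595 to 0.670), whereas Atp5a1 did not pass the fold.

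Subunit c, which forms the rotating ring of ATP synthase, is encoded by Atp5g1, Atp5g2 and Atp5g3; the mature proteins are identical and the genes differ in their promoters and targeting sequences. The share of each gene in the subunit c UMIs differed between gates. In macrophages Atp5g1 gave 42.8% and 41.2%, Atp5g2 38.1% and 40.4% and Atp5g3 19.2% and 18.4%. In CD8 T cells Atp5g1 gave 27.3% and 29.0% and Atp5g2 50.3% and 48.0%, and in migratory dendritic cells 25.9% and 26.1% and 56.4% and 56.2%. Monocytes (40.4% and 39.8% Atp5g1) and intermediate cells (42.8% and 44.6%) resembled macrophages, and NK cells (30.4% and 30.0%) resembled CD8 T cells. Other gates lay between these, among them cDC1 (35.1% and 33.7%) and microglia (35.95% and 33.5%), and regulatory T cells differed between the libraries (26.2% and 32.5%). The summed level did not follow these shares: it was 1102 and 1085 CPM in macrophages, 1210 and 1263 in CD8 T cells, 707 and 689 in monocytes and 828 and 692 in migratory dendritic cells. These are shares of captured UMIs, and capture may differ between the 3 genes but is the same assay in every gate.

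**Figure D3:**
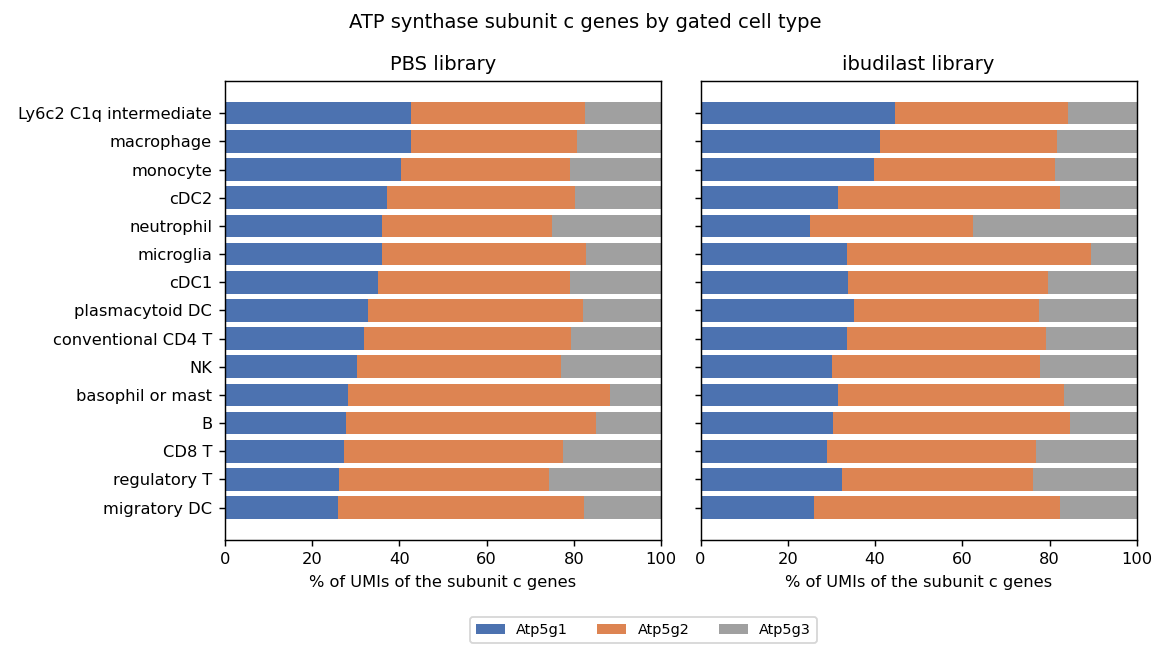
Share of Atp5g1, Atp5g2 and Atp5g3 in the summed UMIs of the 3 subunit c genes, as percentages, by gate and library. Atp5g1 gives 42.8% and 41.2% in macrophages and 25.9% and 26.1% in migratory dendritic cells, where Atp5g2 gives 56.4% and 56.2%.

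The promoters of these 3 genes are shown because the genes make the same mature protein but were used in different shares. Each stretch lies upstream of the RefSeq start site in GRCm38.p6, is printed 5′ to 3′ on the gene's strand, and leaves out bases that GENCODE places in an exon. Capitals mark a match to a motif searched on both strands.
Atp5g1, chr11:96075671-96075881, minus strand: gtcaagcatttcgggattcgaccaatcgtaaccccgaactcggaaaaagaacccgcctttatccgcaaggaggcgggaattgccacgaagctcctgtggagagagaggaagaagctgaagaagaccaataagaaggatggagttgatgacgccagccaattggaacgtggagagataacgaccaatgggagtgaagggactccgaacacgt
Atp5g2, chr15:102671128-102671297, minus strand: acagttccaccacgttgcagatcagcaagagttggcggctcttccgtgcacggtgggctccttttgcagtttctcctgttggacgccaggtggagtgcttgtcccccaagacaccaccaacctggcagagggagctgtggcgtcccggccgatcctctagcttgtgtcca
Atp5g3, chr2:73911327-73911576, minus strand: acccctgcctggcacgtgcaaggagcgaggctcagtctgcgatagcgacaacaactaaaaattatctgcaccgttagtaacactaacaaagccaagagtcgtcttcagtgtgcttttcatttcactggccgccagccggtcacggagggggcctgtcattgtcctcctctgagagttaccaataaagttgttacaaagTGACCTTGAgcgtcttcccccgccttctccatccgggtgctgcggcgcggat
The motifs were GCGCA and GCGC with any 1 base between them (NRF1), CCGGAAG (ETS factors), AAGATGGCG (YY1) and TCAAGGTCA (ERR), all known from promoters of respiratory genes. In Atp5g3 the capitals are the ERR motif on the reverse strand, starting 52 bases before the start site, and the 300-base window of this gene also holds an NRF1 motif outside the printed stretch. In Atp5g2 an NRF1 motif starts 42 bases before the start site, inside an exon of another transcript, and is not printed. No motif was found in the Atp5g1 stretch, which says only that these letters are not there. RefSeq windows of 300 bases were found for 63 of the 76 nuclear symbols (68 windows). The NRF1 motif was in 19 of these 68 (27.9%), against 4.60% of all 32851 windows in the table. The other motifs were in 23.5% against 8.86% (ETS), 11.8% against 1.40% (YY1) and 2.94% against 0.423% (ERR). A match of letters is a description and not evidence of binding, and windows of 1 gene overlap.

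The mt- members were lower than in macrophages in each of 4 myeloid gates: 11 of 13 in monocytes, 12 in intermediate cells, 12 in migratory dendritic cells and 12 in cDC1, with median log2 ratios of -0.75, -0.64, -1.23 and -0.66. Of all nuclear genes, 33.8%, 13%, 41.2% and 28.5% were lower in these gates. Without the limit on mt- UMIs the counts were 13, 12, 12 and 12, and the medians -0.89, -0.79, -1.44 and -0.81. In CD8 T cells 2 were lower and none higher (5 and none without the limit), and in NK cells 1 was lower, mt-Co2, and 1 higher, mt-Nd5 (5 and none without the limit). The shares of all nuclear genes lower and higher were 27.7% and 30.2% in CD8 T cells and 26.6% and 26.8% in NK cells. Intermediate cells thus had nuclear members near the macrophage level but mt- members below it: mt-Cytb of complex III had 2045 and 2100 CPM against 3380 and 3302, and mt-Atp6 of ATP synthase 4537 and 4687 against 7142 and 7336.

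The composition of the mt- UMIs also varied. In macrophages mt-Atp6 gave 22.7% and 22.5% of them, mt-Co3 21.3% and 21.8%, mt-Co2 17.2% and 17.8%, mt-Co1 12.4% and 12.03% and mt-Cytb 10.7% and 10.1%. Monocytes had more mt-Co1, the catalytic subunit of complex IV, at 15.8% (15.6 to 16.1) and 15.2% (15.0 to 15.4), and less mt-Cytb, at 7.81% (7.63 to 8.0) and 7.49% (7.34 to 7.65). Migratory dendritic cells had 15.0% and 15.1% mt-Co1 and 8.77% and 7.91% mt-Cytb. In CD8 T cells mt-Co1 gave 11.3% and 10.7% and mt-Cytb 10.3% and 10.2%. The rows of mt-Atp8 and mt-Nd4l, with at most 53.7 CPM in each of the 6 largest gates, overlap mt-Atp6 and mt-Nd4 on the mitochondrial genome, so their UMIs cannot be told apart from those of their neighbours with certainty.

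Between the ibudilast and the PBS library the nuclear members differed little in the gates with at least 100 cells in each library. In macrophages 0 of 75 members were past the fold limit in either direction, where 7.66% of all nuclear genes were higher and 4.05% lower. In intermediate cells 0 of 68 were (4.66% and 5.12%), in monocytes 0 higher and 1 lower of 68 (5.37% and 5.96%), and in CD8 T cells 2 higher and 0 lower of 71 (5.3% and 4.13%). NK cells had 0 higher and 7 lower of 62 (14.1% and 12.8%), and migratory dendritic cells 1 higher and 6 lower of 54 (13.1% and 12.7%). The 3 members higher and 14 lower over the 6 gates were no larger a share than that of all nuclear genes in any gate.

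The median log2 ratio over nuclear members was 0.01 in macrophages (all genes 0.03), 0.03 in intermediate cells (all genes -0.002), -0.02 in monocytes (all genes -0.01), 0.04 in CD8 T cells (all genes 0.02), -0.15 in NK cells (all genes -0.01) and -0.08 in migratory dendritic cells (all genes 0.03). In NK cells 50 of the 62 members had a ratio under 1, where the median log2 ratio of all 1899 nuclear genes was -0.011. The summed ratio of the members was 0.927 (0.909 to 0.944). In NK cells of 4000 to 12000 UMIs that ratio was 1.01, on the other side of 1; the gate's median depth was 7034.5 UMIs (PBS) and 4662.5 (ibudilast). The share of ribosomal protein UMIs in NK cells was 25.2% and 23.1% and 9 of 12 dissociation stress genes were past the fold limit, higher, there. Cells with at least 3 UMIs of cycling genes made up 12.5% and 3.93% of the NK gate. The part of these in the ratio was not tested.

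Among the NK members lower in the ibudilast library, Ndufab1, the acyl carrier protein, had 185 against 134 CPM (ratio 0.725, 0.598 to 0.878), and Ndufc1 had 146 against 106 CPM. In monocytes the 1 member past the fold was Sdha, at 67.1 against 50.6 CPM (ratio 0.754, 0.634 to 0.897). In CD8 T cells Sdhc had 47.6 against 65.0 CPM (ratio 1.37, 1.09 to 1.72) and Ndufs1 25.5 against 32.6 (ratio 1.28, 0.940 to 1.76), the latter with an interval that spans 1. Migratory dendritic cells had Ndufa12 at 98.6 against 60.9 CPM (130 and 87 UMIs, ratio 0.618, 0.466 to 0.817) and Ndufb5 at 134 against 86.2. In the same gate 34 of 77 cytosolic ribosomal proteins were lower in the ibudilast library and 1 higher, and their summed level was 166600 against 138100 CPM. Its cycling markers were at 578 against 77.1 CPM, its cDC1 markers at 92.5 against 20.3 and its dissociation stress genes at 9712 against 11550. The part of these in the migratory dendritic cell ratios was not tested. In macrophages the highest ratio was that of Ndufs8, at 109 against 129 CPM (1.18, 1.11 to 1.26). Of the 8 assembly factors 7 had a ratio under 1, where the median log2 ratio of all nuclear genes was 0.025. None of these factors passed the fold, and their summed ratio was 0.965. The lowest was Ndufaf5, at 7.11 against 6.00 CPM (0.844, 0.621 to 1.13), an interval that spans 1.

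**Figure D4:**
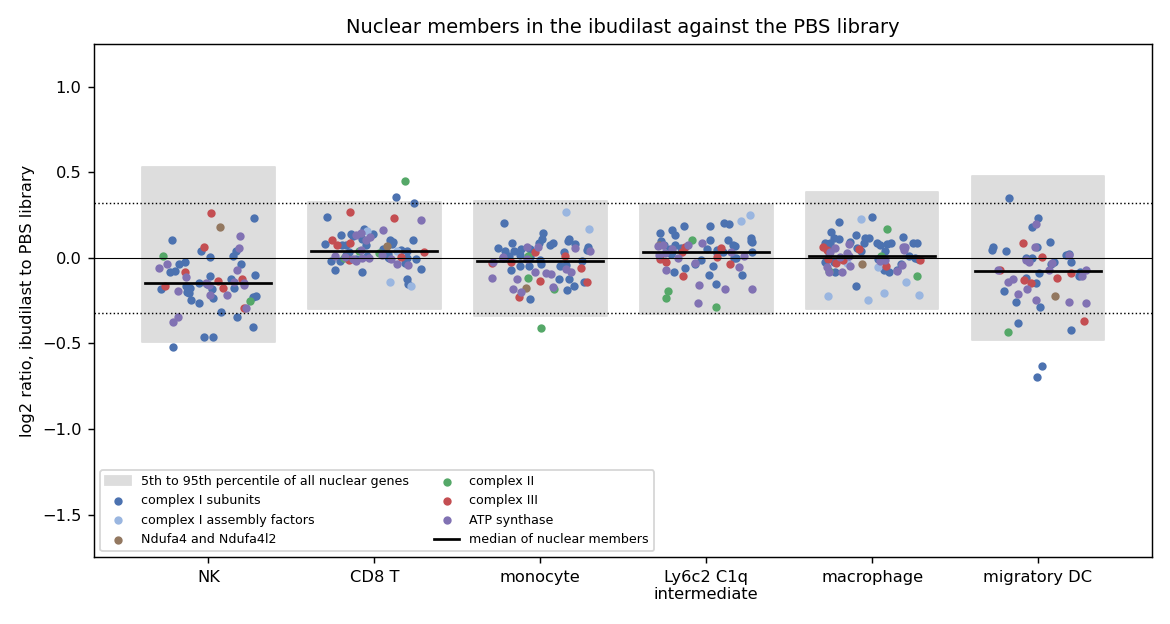
Log2 ratio of the ibudilast to the PBS library for each nuclear member in 6 gates, with the 5th to 95th percentile of all nuclear genes in grey and dotted lines at the fold limit. Macrophage and intermediate members all lie within the dotted lines. In NK cells 50 of 62 members have a log2 ratio under 0, where the median of all nuclear genes is -0.011.

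The summed mt- share was higher in the ibudilast library in all 6 gates: the ratio was 1.08 in NK cells, 1.02 in CD8 T cells, 1.05 in monocytes, 1.07 in intermediate cells, 1.04 in macrophages and 1.06 in migratory dendritic cells. The median share per cell went the other way in macrophages (ratio 0.9748) and migratory dendritic cells (0.919), and over all kept cells together the summed ratio was 0.982. These ratios depended on the limit on mt- UMIs. Without it the macrophage ratio was 1.19, and with a limit of 5% it was 0.974, on the other side of 1. Of macrophages, 7.79% (PBS) and 19.6% (ibudilast) were over the limit of 10%, and of all cells 8.09% and 14.6%. Single mt- members past the fold were mt-Nd2 in monocytes, at 657 against 879 CPM (ratio 1.34), and mt-Nd5 in migratory dendritic cells, at 63.7 against 84.8 (1.33, 0.999 to 1.78), an interval that spans 1. Without the limit 4 were past the fold, all higher: mt-Nd2 and mt-Nd5 in monocytes (1.44 and 1.27) and mt-Nd2 and mt-Nd6 in macrophages (1.31 and 1.34). In migratory dendritic cells mt-Nd5 then fell under the floor of 200 UMIs, at a ratio of 1.27. All of these are complex I subunits, as are 7 of the 13 mt- members, and these did not move alike. With the limit, mt-Nd1 had ratios of 1.076 in macrophages and 1.125 in monocytes, but mt-Nd4 had 0.9325 and 0.9775. Of all nuclear genes, 5.37% were higher in monocytes, 13.1% in migratory dendritic cells and 7.66% in macrophages with the limit.

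**Figure D5:**
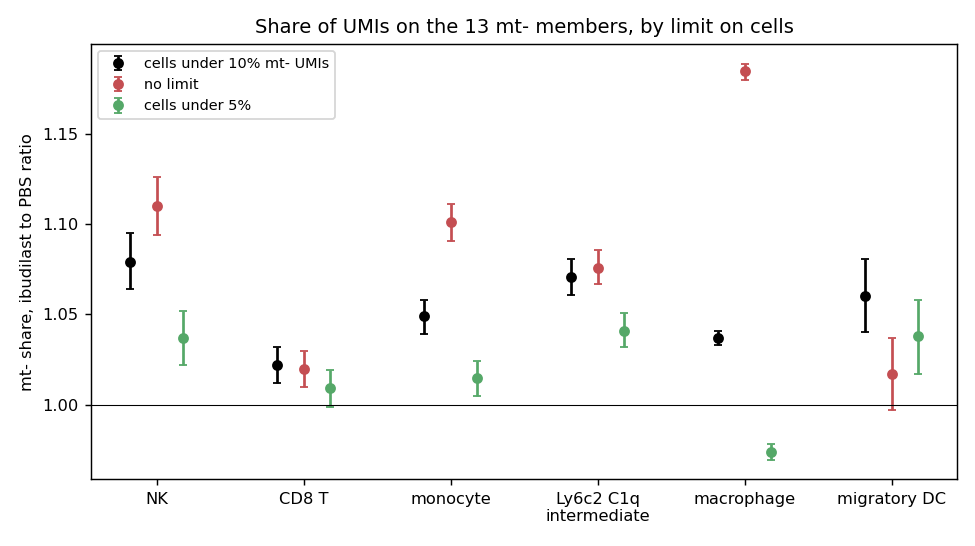
Ratio of the mt- share of UMIs, ibudilast to PBS library, in 6 gates with cells over 10% left out, with no limit and with cells over 5% left out; bars are 95% counting intervals. The macrophage ratio moves from 1.04 to 1.19 and 0.974, while that of CD8 T cells lies between 1.01 and 1.02.

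Cycling cells, those with at least 3 UMIs of cycling genes, had a higher nuclear member CPM than the other cells of the same gate. In CD8 T cells the sum was 18960 against 15700 CPM in the PBS library (73 and 138 cells) and 19520 against 16130 in the ibudilast library (138 and 267 cells). In macrophages it was 16080 against 14430 and 16370 against 14760, and in NK cells 18650 against 16240 and 17390 against 15390. Cycling cells were deeper, with medians of 15054 against 7545.5 UMIs and 14565.5 against 7184 in CD8 T cells. Since a cell counts as cycling by a number of UMIs, depth enters that choice. The share of cycling cells differed between gates. It was 41.5% and 31.2% in regulatory T cells, 34.6% and 34.1% in CD8 T cells, 28.4% and 39.4% in cDC1 and 21.9% and 19.3% in macrophages. It was 12.5% and 3.93% in NK cells, 5.88% and 2.86% in plasmacytoid dendritic cells and 2.45% and 1.11% in monocytes. The part of this in the order of the gates was not tested.

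In CD8 T cells 28 of 71 members were higher by the fold limit and 1 lower, against 22% and 13.5% of all nuclear genes, with a median log2 ratio of 0.32 (all genes 0.04). In cells of 4000 to 12000 UMIs 11 were higher. In NK cells, with 17 and 11 cycling cells, 10 of 62 were higher and 0 lower (12% and 15.7% of all nuclear genes), and 5 of the 10 had intervals above 1 in both libraries. In macrophages 2 of 75 were higher and 0 lower (11.5% and 4.96%), with a median log2 ratio of 0.18 (all genes 0.03). A ratio above 1 in both libraries was found for 62 of the 75 members and for 3709 of all 9030 nuclear genes. Under the first version of the gates 12 were higher in macrophages. For this count and for that in cells of 4000 to 12000 UMIs, shares of all nuclear genes are not given.

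The members higher in cycling CD8 T cells came from every complex: 14 of 37 complex I subunits, 2 of 4 complex II, 3 of 8 complex III and 7 of 17 ATP synthase members. Of all nuclear genes 22% were higher there. Ndufab1 had 241 against 135 CPM and 253 against 150 (ratio 1.78, 1.46 to 2.18, and 1.69, 1.47 to 1.95). It was also past the fold in cycling NK cells, at 1.56 and 2.38. Ndufa6 was the member lower in cycling CD8 T cells, at 188 against 247 and 178 against 235 CPM (ratio 0.760, 0.636 to 0.908, and 0.754, 0.660 to 0.862). Uqcrh, high in CD8 T cells as a whole, had ratios of 0.831 (0.759 to 0.910) and 0.814 (0.762 to 0.868) and did not pass the fold. The 2 macrophage members past the fold were both of ATP synthase: Atp5g3 (1.37, 1.31 to 1.43, and 1.38, 1.251 to 1.52) and Atp5o (1.254 and 1.48). Of the mt- members, mt-Nd1 was higher in cycling CD8 T cells (1.31 and 1.29). In cycling NK cells mt-Nd1 (1.32 and 1.59), mt-Nd4 (1.253 and 1.33) and mt-Cytb (1.29 and 1.49) were higher. In cycling macrophages mt-Nd6 was lower (0.695, 0.566 to 0.848, and 0.776, 0.522 to 1.13), with an interval that spans 1 in the ibudilast library.

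Other genes of the pathway were followed as lists. For these, the shares of all nuclear genes higher and lower than in macrophages were 30.2% and 27.7% in CD8 T cells, 26.8% and 26.6% in NK cells, 16.5% and 28.5% in cDC1, 16.6% and 33.8% in monocytes and 20.1% and 41.2% in migratory dendritic cells. Of the nuclear subunits of complex IV, 14 passed the floor against macrophages, with 4 higher and 3 lower in CD8 T cells, 4 and 3 in cDC1, 0 and 4 in monocytes and 0 and 3 in migratory dendritic cells. Of the 77 mitochondrial ribosomal proteins, 45 were lower and 2 higher in monocytes, 49 lower and 7 higher in migratory dendritic cells, and 15 higher and 7 lower in CD8 T cells. Their median log2 ratios there were -0.49, -0.57 and 0.12 (all genes -0.18, -0.34 and 0.07). In cycling CD8 T cells 28 of 66 mitochondrial ribosomal proteins were higher and 1 lower (22% and 13.5% of all nuclear genes). Of 13 citric acid cycle enzymes, 6 were lower and 1 higher in migratory dendritic cells and 3 higher and none lower in CD8 T cells. Tfam, the transcription factor of mitochondrial DNA, had 42.5 and 40.6 CPM in CD8 T cells, 22.1 and 23.8 in macrophages and 15.2 and 9.11 in migratory dendritic cells. The cytosolic ribosomal proteins, a large group of constitutive genes, were more often past the fold than the respiratory members, with 68 of 79 higher in CD8 T cells and 58 in NK cells.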

How the data were processed

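Raw UMI counts per gene and cell were deposited by the authors as 1 sparse matrix per library; per the file headers, Cell Ranger 6.1.1 made them, against mm10, per the submitters' processing notes. Barcodes with at least 500 UMIs and 300 genes and under 10% mt- UMIs were kept. Scrublet's automatic threshold marked 0 cells in either library and was not used; instead, cells in the top 6% of doublet scores were removed (489 PBS and 425 ibudilast cells). Cells were gated on raw UMIs of marker genes with Python 3.11.15, scanpy 1.11.5, scipy 1.17.1 and numpy 2.4.6. The gate limits are the second of 2 versions. The first was changed because it left 10 and 8 cDC1 and 4 and 3 type 2 dendritic cells and put 846 PBS cells in the microglia gate. The printout that led to the change also showed the nuclear and mt- sums of each gate, so the revision was not blind to them. The first version was run as an alternative chosen after seeing the data.

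UMIs were summed per gate and library and divided by all UMIs of the gate (CPM). Ratios carry exact conditional binomial 95% intervals, sums exact Poisson and shares exact binomial intervals, all for counting error only. With 1 library per group no test was made. Calls needed 200 UMIs and a ratio under 0.8 or above its inverse, in both libraries for cell type and cycling comparisons. On simulated Poisson counts for 5 of the gates' library comparisons, 100% of 200 genes changed 2-fold were recovered and 2.56% to 3.92% of unchanged genes were called. At this floor and fold limit such recovery was close to certain beforehand. The simulation held counting error only and no other difference between libraries, so it does not give the share of false calls in the data. Median UMIs per cell in the 6 largest gates ran from 7034.5 to 14584 (PBS library) and 4662.5 to 9306 (ibudilast library).

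The members, marker and pathway lists were chosen with earlier results of these data known; the 6 cell type and 3 cycling comparisons, the motifs and the promoters shown were picked after gate values were seen. Genes named are the mt- members, the 3 highest and 3 lowest members of each comparison, the 8 with the widest spread over gates, members fixed for their role, up to 4 of each pathway list, and others chosen after their values were seen. Gene positions are from GENCODE M21, in which all 90 identifiers were found, and promoter sequences from RefSeq (GRCm38.p6). Genes with a near-identical copy elsewhere may share UMIs with it, which was not tested. Alternatives covered the mt- limit, doublets, marker minimums, the UMI denominator, cell weighting, depth, the UMI floor, the fold and centring on the median ratio.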

Additional observations from a re-analysis of the deposited data

How the results depend on the processing

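The nuclear sum was above that of macrophages in 5 to 8 gates over the alternatives (7 as reported), with 5 when cells were weighted alike. Over the alternatives the main counts and ratios stayed within 1.5 times or on their side in 224 instances and moved in 60, given here. With a 1.5-fold limit, members higher and lower than in macrophages were 4 and 1 in CD8 T cells, 4 and 2 in NK cells, 5 and 0 in cDC1, 0 and 10 in monocytes and 1 and 18 in migratory dendritic cells, with 0 higher in intermediate cells; cycling counts were 3 higher and 0 lower in CD8 T cells, 3 higher in NK cells and 0 in macrophages; and over the 6 library comparisons 0 were higher and 2 lower. With a floor of 1 UMI in each library those library counts were 9 and 30, with 50 UMIs 8 and 24, and with 1000 UMIs 0 and 2, when cycling counts were 17 higher in CD8 T and 1 in NK cells. In cells of 4000 to 12000 UMIs, 6 were lower in CD8 T cells, 3 in cDC1, 11 in monocytes and 4 over the library comparisons; cycling counts were 11 and 0 in CD8 T cells and 5 and 1 in NK cells; the mt- ratio of macrophages was 0.987 and the nuclear ratio of NK cells 1.01, both reversed. With cells weighted alike, 6 were lower in CD8 T cells, 5 in intermediate cells, 10 in NK cells and 3 in cDC1, 1 was higher in migratory dendritic cells and 1 in monocytes, and cycling counts were 0 lower in CD8 T cells and 5 higher in macrophages. Centred on the median ratio of all genes, 19 were higher in cDC1, 13 higher and 18 lower in migratory dendritic cells, 13 lower in monocytes and 1 higher in cycling macrophages. With CPM over nuclear UMIs, 1 was lower in intermediate cells and 4 higher in cycling macrophages. With an mt- limit of 5% the mt- ratio of macrophages reversed to 0.974 and 1 member was lower in intermediate cells; with none, 2 gates had an mt- share above macrophages, 2 members were lower in cDC1 and 4 higher in cycling macrophages. With marker minimums multiplied by 2, intermediate cells had 2 higher and 3 lower and 8 were higher over the library comparisons. Under the first version of the gates, chosen as an alternative after seeing the data, 1 was lower in CD8 T cells, 7 in cDC1 and 9 in monocytes, 0 higher in intermediate cells and 12 in cycling macrophages. The causes were not tested, and shares of all nuclear genes are not given for these settings. No paired analysis was possible because each group is 1 library, and for the same reason no replicate could be left out. Depth limits the assembly factors most: 7 of the 8 had under 50 UMIs in a library in NK cells, cDC1 and migratory dendritic cells.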

Other observations

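Some genes that work beside the members, chosen here after their values were seen, also differed between cell types. Cox6a2, the isoform of a complex IV subunit known from heart and skeletal muscle, had 1141 CPM (1052 to 1236) and 814 CPM (723 to 915) in plasmacytoid dendritic cells, over 600 and 285 UMIs in 51 and 35 cells. It had 37.4 and 48.4 CPM in microglia, 5.40 and 7.71 in macrophages and 1.03 and 0.739 in monocytes. Cox4i2, an isoform of another complex IV subunit, had 9.34 and 8.03 CPM in macrophages and no UMI in migratory dendritic cells, which allows up to 2.80 and 2.58 CPM at the upper end of the 95% interval.

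In cDC1, Atpif1, the inhibitor of reverse ATP synthase activity, had 851 and 794 CPM, against 376 and 354 in macrophages, 154 and 157 in monocytes and 166 and 134 in NK cells. Cycs, which encodes cytochrome c, had 716 and 767 CPM in cDC1, 504 and 503 in monocytes and 336 and 321 in macrophages. Slc25a4, an ADP/ATP carrier of the inner membrane, had 254 and 174 CPM in migratory dendritic cells, 104 and 102 in macrophages and 49.1 and 39.5 in monocytes.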
